A study of Homo sapiens with 18 samples.

Results

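The genes described here are 49 interferon-stimulated genes, read from the rows of the deposited count table that carry their own names. They were a list of names chosen from knowledge of the interferon response, with earlier results of these data known. All 49 were found among the 57773 genes of the table. Of these, 17 reached at least 10 counts in at least 3 of the 18 libraries and were tested, and 32 did not and are given as summed counts. By known role, 5 of the 49 are sensors and transcription factors, 24 are antiviral effectors, 8 belong to the ISG15 and ubiquitin system, 4 to ADP-ribosylation and nuclear bodies, and 8 are other interferon-induced genes.

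All 18 libraries were made from RWPE1, a benign line of human prostate epithelium in long-standing use. Stable populations selected with blasticidin carried 1 of 3 MACC constructs, in which a domain that binds androgen response elements (AREs) is fused to ERT2, so that tamoxifen brings the protein to these elements. The neutral construct has only a 3X FLAG tag, while a KRAB domain is added in the repressive construct and a VP64 domain in the activating construct. Cells were given ethanol (vehicle) or tamoxifen over 48 hours, the latter at a dose labelled 1.5 uM in the treatment field and 1.25 uM in the protocol field, with 3 biological replicates in each of the 6 groups. The neutral line with tamoxifen shares the DNA-binding domain, ERT2 and the drug with the other tamoxifen groups. The 3 lines are separate populations, so a construct and the history of its line cannot be told apart.

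Interferons are secreted proteins that signal through cell surface receptors and JAK kinases to transcription factors. Type I and III interferons lead to a complex with STAT2 and IRF9 that binds the interferon-stimulated response element (ISRE), and the response to interferon gamma runs through the gamma-activated site (GAS). The genes switched on in this way include sensors of viral RNA, factors that extend the response, and proteins that block viral entry, translation and replication, and epithelial cells use this response as a defence at mucosal surfaces.

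Total counts per library lay between 675609 and 792282, so that a row with 0 counts could hide a row level of up to 3.79 to 4.44 CPM. CPM are counts scaled to the library total, and the floor of 3 counts covers counting error only. This floor bounds the row and not the mRNA of the gene, because of the strand limit given below. Most counts were placed at genes with an exon overlap on the opposite strand. They made up 23.0% of the matched genes and held 89.0% of their counts. MT-ND6, the protein gene transcribed from the light strand of the mitochondrial genome, held 71.7% to 79.6% of the counts of the 13 mitochondrial protein genes. The strand setting used for counting is not stated. A row named for a gene may hold mainly reads from the opposite strand, which was not tested. It cannot be taken as the level of that gene's mRNA. Transcripts of a gene and of its opposite-strand partner cannot be told apart. Where a gene is said below to rise or fall, its row is meant. An opposite-strand exon overlap was present for 19 of the 49 members. A low count in the partner's row does not show how many of the partner's reads lie in the member's row. Summed over the 7 basal epithelial markers, counts per library lay between 1292 and 2467, and over the 6 luminal markers between 555 and 1063, with KLK3 at 0. Over the 6 leukocyte markers they lay between 11 and 29 (PTPRC, LYZ and CD3E at 0), and over the 5 fibroblast and endothelial markers found in the table between 0 and 13 (DCN, VWF, LUM and COL1A2 at 0).

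The promoters of the 6 members whose rows passed the test in the repressive line are shown first, because they hold the elements through which interferon is known to act. The sequences are from RefSeq (GRCh38.p14, a different build from the table), run 5′ to 3′ on the gene's strand, and span 200 bases before to 20 bases from an annotated start. Capitals mark matches to the ISRE core GAAANNGAA and the GAS core TTCNNNGAA. For MX1, the stretches at 2 of its 3 starts are given, since they hold a match.
IRF1 (chr5:132490754-132490973, minus strand): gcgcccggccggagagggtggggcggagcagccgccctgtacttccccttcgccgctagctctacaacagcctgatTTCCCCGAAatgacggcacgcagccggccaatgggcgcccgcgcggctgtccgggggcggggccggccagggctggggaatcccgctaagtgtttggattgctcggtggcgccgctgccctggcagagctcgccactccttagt
ISG15 (chr1:1013297-1013516, plus strand): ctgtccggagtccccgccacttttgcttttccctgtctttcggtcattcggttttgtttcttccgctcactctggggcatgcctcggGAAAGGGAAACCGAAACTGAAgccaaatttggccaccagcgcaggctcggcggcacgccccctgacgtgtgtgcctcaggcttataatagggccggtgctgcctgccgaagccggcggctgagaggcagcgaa
IFITM1 (chr11:313840-314059, plus strand): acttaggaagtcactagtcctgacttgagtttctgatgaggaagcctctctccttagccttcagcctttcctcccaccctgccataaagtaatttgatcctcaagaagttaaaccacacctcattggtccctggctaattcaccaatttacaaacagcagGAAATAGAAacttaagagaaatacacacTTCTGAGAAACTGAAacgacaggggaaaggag
IFITM3 (chr11:320841-321060, minus strand): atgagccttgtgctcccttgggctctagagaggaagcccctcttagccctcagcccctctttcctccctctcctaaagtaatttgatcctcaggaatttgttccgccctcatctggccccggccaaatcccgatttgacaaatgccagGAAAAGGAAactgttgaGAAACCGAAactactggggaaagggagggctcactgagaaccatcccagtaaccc
OAS3 (chr12:112938274-112938493, plus strand): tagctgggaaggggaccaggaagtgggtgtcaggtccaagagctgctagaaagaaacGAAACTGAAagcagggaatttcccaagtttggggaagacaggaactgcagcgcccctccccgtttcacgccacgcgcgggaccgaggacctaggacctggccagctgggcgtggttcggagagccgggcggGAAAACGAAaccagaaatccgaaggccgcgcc
MX1, upstream start (chr21:41420358-41420577, plus strand): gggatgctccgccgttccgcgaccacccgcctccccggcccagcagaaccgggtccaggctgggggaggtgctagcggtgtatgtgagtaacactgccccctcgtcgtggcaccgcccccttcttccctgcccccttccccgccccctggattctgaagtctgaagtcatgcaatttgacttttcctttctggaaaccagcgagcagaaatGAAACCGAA
MX1, downstream start (chr21:41431850-41432069, plus strand): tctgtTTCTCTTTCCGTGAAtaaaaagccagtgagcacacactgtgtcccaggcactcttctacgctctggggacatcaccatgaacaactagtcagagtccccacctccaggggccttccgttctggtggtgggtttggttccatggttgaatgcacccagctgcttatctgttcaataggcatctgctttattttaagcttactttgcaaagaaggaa

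The ISRE core, searched on both strands, occurred in the 300-base promoter of 27 of the 40 members for which a promoter was at hand (67.5%), against 8.11% of all 35116 promoters and 9.86% of 27305 gene symbols. The GAS core, which reads the same on both strands, occurred in 12 of the 40 members (30%), against 7.66% of promoters and 9.38% of symbols. Both cores overlapped each other in 5 members, BST2, EPSTI1, IFI27, IFITM1 and MX1. Of the 6 genes shown, 5 held the ISRE core, and IRF1 held the GAS core alone, which starts 124 bases before its start. ISG15 held 3 overlapping ISRE cores between 113 and 101 bases before its start. The ARE core ACANNNTGT, the motif bound by the DNA-binding domain of the constructs, occurred in 3 of the 40 members, MX1, HERC5 and SP100 (7.5%, against 5.37% of promoters and 6.54% of symbols). These are matches of letters, not measured binding, and regions outside the windows were not searched. MX2, OAS2, OASL, IFIT2, IFITM2, IRF7, GBP2, TRIM22 and USP18 were not among the promoters used.

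**Figure D1:**
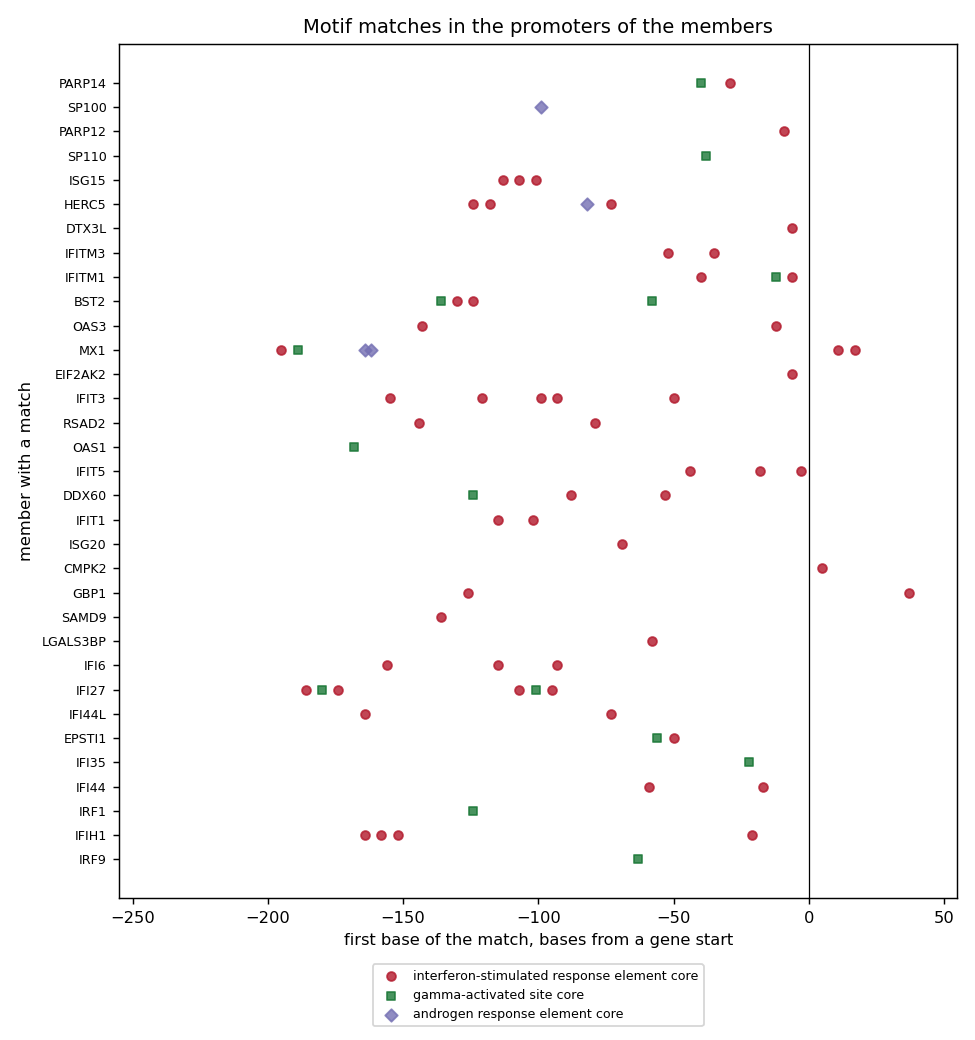
Positions of motif matches in the 300-base promoters of the members, with the distance in bases from an annotated start on the x axis and 1 gene per row. Circles mark the ISRE core, squares the GAS core and diamonds the ARE core, and the ISRE core is present in 27 of 40 members. All windows of a gene with several starts are drawn on 1 row.

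In the repressive line the summed level of the interferon-stimulated genes was much higher with tamoxifen, and in the neutral and activating lines the shifts were small and of opposite sign. Summed over all 49 rows, normalized counts (counts divided by a size factor for each library) in the repressive line were 298 ± 7.72 with vehicle and 790 ± 52.1 with tamoxifen (SD, n = 3). The lowest tamoxifen library was at 730 and the highest vehicle library at 306, so the groups lay far apart, with a ratio of 2.65, and no test was made of the sums. This sum rests on few reads, 316 to 333 counts per vehicle library and 697 to 840 per tamoxifen library. It did not rest on the 6 called rows alone, since the other 43 rows gave a ratio of 2.40. The 32 rows below the count filter went from 53.3 ± 10.4 to 165 ± 8.50, a ratio of 3.09. Counts were pooled over many cells, so a higher sum from more cells with the response or from more RNA per cell cannot be told apart.

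In the neutral line the summed level was 215 ± 13.8 with vehicle and 246 ± 5.07 with tamoxifen, a ratio of 1.14. In the activating line it was 230 ± 14.9 with vehicle and 190 ± 15.8 with tamoxifen, a ratio of 0.827. In both lines the vehicle and tamoxifen libraries did not overlap, with the highest neutral vehicle library at 229 against the lowest tamoxifen library at 241, and the lowest activating vehicle library at 220 against the highest tamoxifen library at 205. The shifts in these lines were small beside that of the repressive line. The vehicle-treated repressive line was itself above the vehicle-treated neutral line, at a ratio of 1.39.

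**Figure D2:**
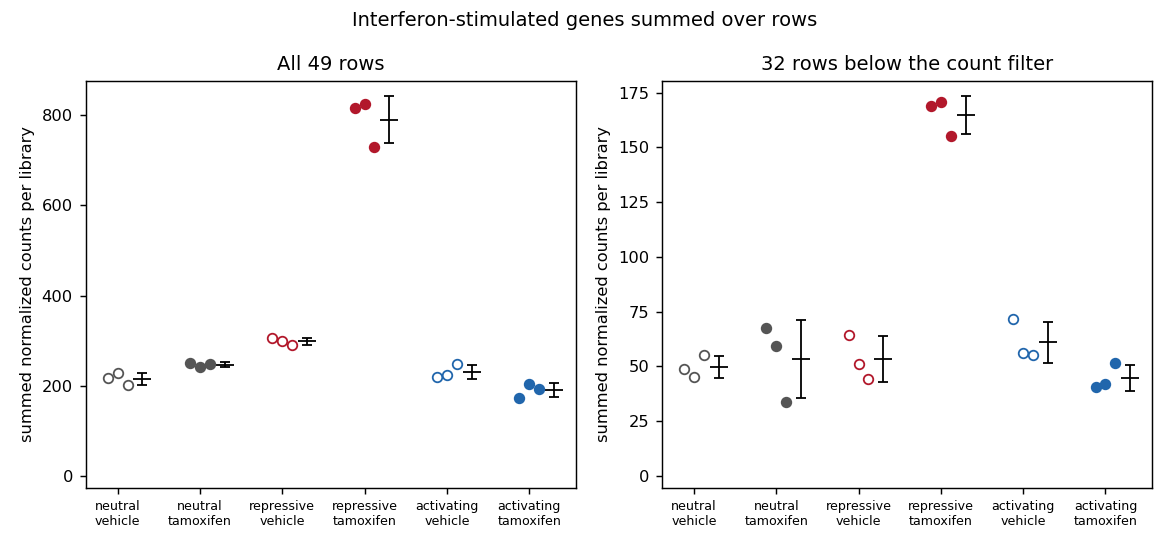
Summed normalized counts per library for all 49 rows (left) and for the 32 rows below the count filter (right), by construct and treatment. Points are libraries, open for vehicle and filled for tamoxifen, and the bars beside them give the mean ± SD (n = 3). The 3 repressive tamoxifen libraries lie between 730 and 825 in the left panel, above every other library.

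Most rows shared this direction, in a list drawn up with earlier results of these data known. In the repressive line the mean of the tamoxifen libraries exceeded that of the vehicle libraries for 46 of 49 rows (93.9%), against 48.99% of the 16842 genes of the table with a count in either group. The exceptions were GBP1, SAMD9L and DTX3L, which had 6, 1 and 7 summed counts with vehicle and 3, 0 and 5 with tamoxifen. Among the 46, IRF9 (13 and 13 counts) and STAT2 (7 and 7) had equal summed counts and were higher only after scaling. Some others, such as SP100 (6 and 7), differed by very few counts. With total-count scaling IRF9 was also lower, and 45 of 49 rows were higher, against 44.3% of all genes. In the neutral line 27 of the 47 rows with a count were higher with tamoxifen (57.4%, against 50.1% of all genes). In the activating line 17 of 48 were higher and 31 lower (35.4% higher, against 50.8%).

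**Figure D3:**
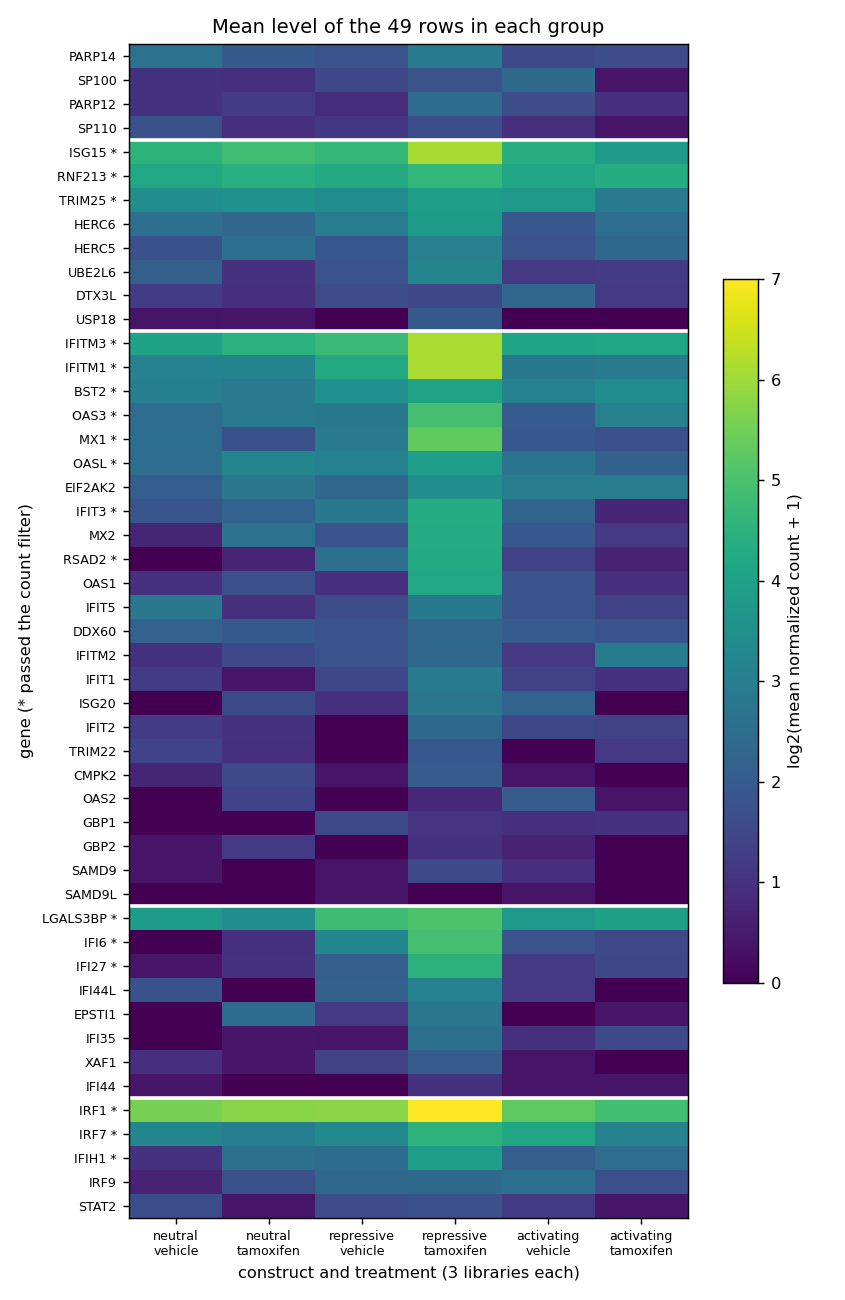
Mean level of each of the 49 rows in the 6 groups, as log2(mean normalized count + 1), grouped by role with white lines between roles. Stars mark the 17 rows that passed the count filter. The repressive tamoxifen column is the brightest for most rows, and many rows are near 0 in the other 5 groups.

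With an adjusted p under 0.05 in DESeq2, 6 of the 17 rows tested passed in the repressive line, all of them higher. Of all 5816 genes tested, 9.65% passed in this comparison and 5.62% passed as higher. That split depends on the scaling, since 327 of the 561 genes called were higher here and 230 of 611 with total-count scaling. Among the 17 rows, MX1, OASL, IFI6, IFI27, IFIT3 and RSAD2 had reached the count filter only through the repressive tamoxifen libraries, which favours a difference. The count is therefore given as a description, and so are the p-values of these 6 rows in comparisons that use those libraries. With no filter on counts all 49 rows were tested, and the same 6 passed, with 622 of 20175 genes passing. At an unadjusted p under 0.05, 11 rows passed, all higher (19.7% of all genes passed at that threshold), and 11 rows kept an adjusted p after independent filtering.

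Among the sensors and transcription factors, IRF1 rose. IRF1, a factor that binds the promoters of many interferon-stimulated genes, had normalized counts of 47.5, 51.2 and 63.4 with vehicle and 107, 145 and 131 with tamoxifen in the repressive line. The groups did not overlap, and DESeq2 gave an adjusted p of 8.68e-05 for a log2 fold change of 1.24 (SE 0.27). The IRF1 row lies on the minus strand of chromosome 5 (131776132 to 131844411, GRCh37), with 2805 exonic bases opposite C5orf56, which had 108 counts in all libraries against 1052 for IRF1. IRF7, the factor that amplifies type I interferon production, had normalized counts of 6.65, 6.29 and 13.8 with vehicle and 30.1, 15.1 and 21.0 with tamoxifen. These did not overlap either, but the adjusted p was 0.115 (log2 fold change 1.31, SE 0.56). Here and below, overlap describes 3 libraries against 3 and is no test, and the share of all genes without overlap is not given. IFIH1, a sensor of long double-stranded RNA, had 15 counts with vehicle and 40 with tamoxifen summed over the 3 libraries (log2 fold change 1.61, SE 1.05, no adjusted p). IRF9 and STAT2, members of the ISRE-binding complex, had 13 and 7 summed counts with vehicle and again 13 and 7 with tamoxifen.

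Of the antiviral effectors, MX1, OAS3, IFITM1 and IFITM3 rose in the repressive line. MX1, a GTPase that blocks the replication of many viruses, had normalized counts of 13.3, 3.59 and 2.76 with vehicle and 47.6, 34.8 and 33.5 with tamoxifen. The lowest tamoxifen library was more than the highest vehicle library, and the log2 fold change was 2.57 (SE 0.72, adjusted p 0.00468). MX1 is on the plus strand of chromosome 21 (42791947 to 42841998, GRCh37). It reached the count filter only through the repressive tamoxifen libraries, so its p-value is a description. The largest opposite-strand exon overlap of MX1 is with TMPRSS2 (562 bases), whose row had 3 counts in all libraries. The overlap with AP001610.5, described below, is 436 bases. OAS3, an oligoadenylate synthetase that responds to double-stranded RNA, had 3.80, 9.88 and 4.59 with vehicle and 29.1, 26.7 and 32.5 with tamoxifen. The groups again did not overlap (log2 fold change 2.27, SE 0.66, adjusted p 0.00724). OAS3, on the plus strand of chromosome 12 (113375856 to 113414265), has no exon overlap on the opposite strand. Without any 1 of the 3 repressive tamoxifen libraries MX1 and OAS3 had no adjusted p and 4 rows were called, and without vehicle replicate 1 of the repressive line the adjusted p of OAS3 was 0.0552.

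IFITM1, a membrane protein that hinders the fusion of viruses with cell membranes, had normalized counts of 29.4, 12.6 and 12.9 with vehicle and 79.6, 62.7 and 65.0 with tamoxifen in the repressive line. Its log2 fold change was 1.92 (SE 0.49, adjusted p 0.00150). IFITM3, which acts in the same way in endosomes, had 28.5, 26.1 and 24.8 with vehicle and 60.2, 85.9 and 58.7 with tamoxifen. Neither gene's groups overlapped, and the log2 fold change of IFITM3 was 1.36 (SE 0.35, adjusted p 0.00147). IFITM1 (310041 to 315272, plus strand), IFITM2 and IFITM3 (319676 to 329475, minus strand) lie next to each other on chromosome 11 and are near-identical in part, so reads may be split among them and their separate values are uncertain. IFITM2 had 8 summed counts with vehicle and 11 with tamoxifen. The opposite-strand rows of IFITM1 and IFITM3 in the table had 4 and 0 counts in all libraries.

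The other antiviral effectors had few counts, and most were higher with tamoxifen in the repressive line. Summed over 3 libraries, MX2, a relative of MX1, had 8 counts with vehicle and 54 with tamoxifen, and OAS1 had 3 and 47. IFIT3 had 20 and 56 (log2 fold change 1.66, SE 0.69, unadjusted p 0.0159) and IFIT1 6 and 19. IFIT2, a member of the same family of RNA-binding proteins, had 0 and 12, at least 4.48-fold higher against a floor of 3 counts over the vehicle group. RSAD2 (viperin), which makes a chain-terminating nucleotide, had 16 and 53 counts (log2 fold change 1.93, SE 0.90, unadjusted p 0.0320). EIF2AK2 (PKR), the kinase that halts translation on double-stranded RNA, had 13 and 28, and ISG20, an exonuclease, 3 and 16. OASL had 24 and 40 and BST2 (tetherin), which holds budding virions at the cell surface, 35 and 46, with log2 fold changes of 0.93 (SE 0.71) and 0.59 (SE 0.55) that did not pass. IFIT5 had 7 and 17 counts, TRIM22 0 and 8, CMPK2 1 and 9, DDX60 8 and 11, SAMD9 1 and 5, GBP2 0 and 3 and OAS2 0 and 2. Reads of the OAS, IFIT and MX families may also be shared between relatives.

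In the ISG15 and ubiquitin system, ISG15 rose. ISG15, a ubiquitin-like protein that is attached to other proteins, had normalized counts of 19.9, 22.5 and 30.3 with vehicle and 70.9, 70.8 and 59.7 with tamoxifen in the repressive line. The groups did not overlap, and the log2 fold change was 1.47 (SE 0.33, adjusted p 2.25e-04). ISG15 is on the plus strand of chromosome 1 (936518 to 949920), and its opposite-strand row had 0 counts in all libraries. The enzymes of its conjugation had lower counts, with 8 and 23 for UBE2L6, which carries ISG15, and 9 and 21 for HERC5, its main ligase. USP18, which removes ISG15 and damps the receptor, had 0 counts with vehicle and 9 with tamoxifen, at least 3.24-fold higher against the floor. HERC6 had 22 and 37 counts and DTX3L 7 and 5. TRIM25, a ligase that acts on the RNA sensor RIG-I, and RNF213, a large ubiquitin ligase, had log2 fold changes of 0.55 (SE 0.60) and 0.42 (SE 0.52) and did not pass. RNF213 had 14.2, 29.6 and 10.1 normalized counts with vehicle and 27.2, 18.6 and 26.2 with tamoxifen, which overlap.

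None of the other interferon-induced genes passed in the repressive line in the fit of all libraries, and IFI27 and IFI6 passed in alternative fits. IFI27, a small membrane protein, had normalized counts of 1.9, 5.39 and 2.76 with vehicle and 31.1, 23.2 and 10.5 with tamoxifen. The groups did not overlap, but independent filtering left it without an adjusted p (log2 fold change 2.68, SE 0.89, unadjusted p 0.00245). It passed with no independent filtering (adjusted p 0.0302) and with only the libraries compared (adjusted p 0.00464). IFI27 and IFI6 reached the count filter only through the repressive tamoxifen libraries, so their p-values in this line are a description. IFI6, a relative of IFI27, had 9.49, 3.59 and 12.9 with vehicle and 15.5, 44.1 and 29.3 with tamoxifen (log2 fold change 1.78, SE 0.70, unadjusted p 0.0116), and passed with only the libraries compared (adjusted p 0.0269). IFI44L had 11 summed counts with vehicle and 21 with tamoxifen, IFI35 1 and 14, EPSTI1 4 and 17, XAF1 5 and 9 and IFI44 0 and 3. LGALS3BP, a secreted glycoprotein, had 24.7, 26.9 and 30.3 normalized counts with vehicle and 34.0, 38.3 and 24.1 with tamoxifen, which overlap (log2 fold change 0.23, SE 0.47). Of the ADP-ribosylation and nuclear body genes, PARP14 had 8 and 19 summed counts, PARP12 3 and 13, SP100 6 and 7 and SP110 4 and 6.

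**Figure D4:**
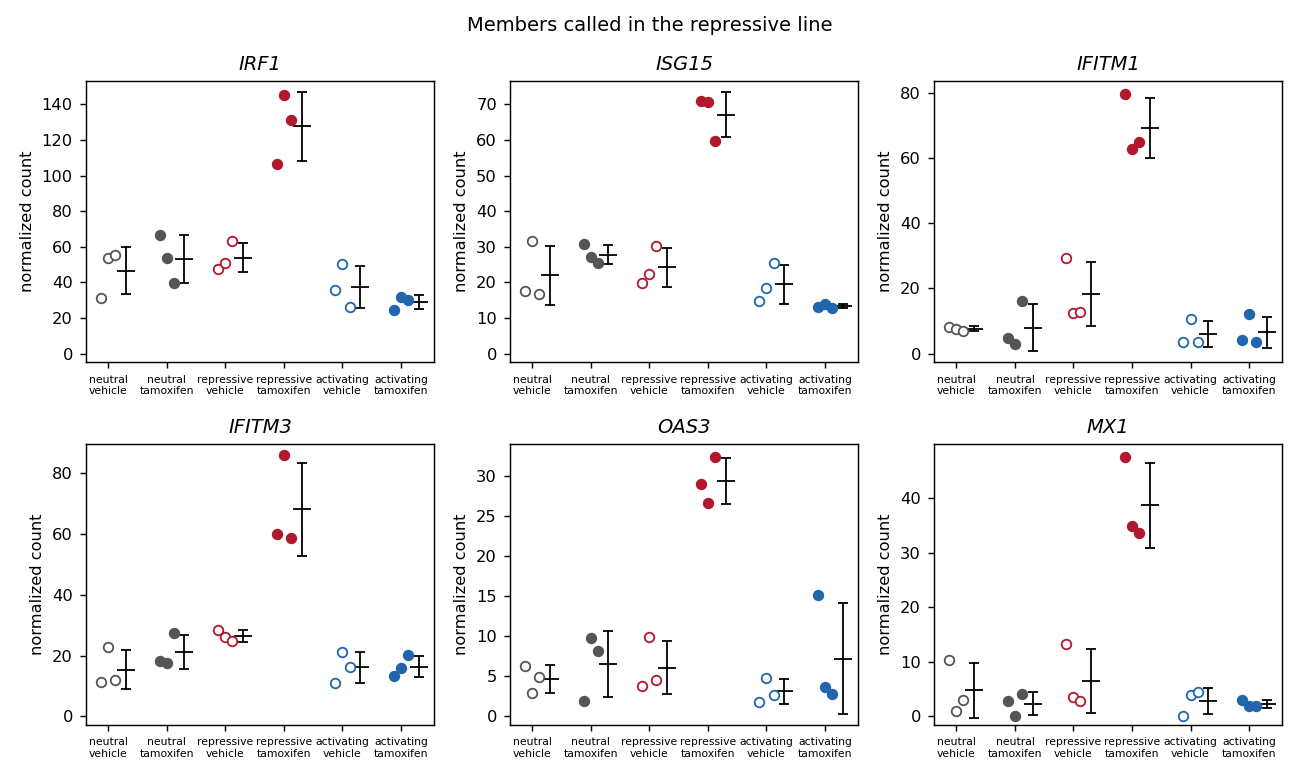
Normalized counts of the 6 rows called in the repressive line, per library, by construct and treatment. Points are libraries, open for vehicle and filled for tamoxifen, with the mean ± SD (n = 3) beside them. In each panel the 3 repressive tamoxifen libraries lie above all others.

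In the neutral line, where tamoxifen moves a construct with no effector, no member passed in DESeq2 or in edgeR, and none had an unadjusted p under 0.05. Of all genes tested 0.774% passed, and none of the 17 rows kept an adjusted p there. IRF1 had 31.2, 53.6 and 55.2 normalized counts with vehicle and 66.5, 53.6 and 39.7 with tamoxifen, which overlap (log2 fold change 0.19, SE 0.28). ISG15 had 17.7, 31.6 and 16.7 with vehicle and 30.8, 27.3 and 25.4 with tamoxifen, which also overlap (0.34, SE 0.36). MX1 was at 4.77 ± 4.98 and 2.32 ± 2.09 (SD, n = 3), OAS3 at 4.68 ± 1.70 and 6.60 ± 4.13, IFITM1 at 7.63 ± 0.715 and 8.01 ± 7.23, and IFITM3 at 15.4 ± 6.54 and 21.1 ± 5.53.

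In the activating line no member passed either, in DESeq2 or in edgeR, with 2.8% of all genes passing and 1 row keeping an adjusted p. At an unadjusted p under 0.05, IFIT3 and IRF7 were lower, 2 of the 17 rows, and 10.4% of all genes passed at that threshold. IRF7 had 18.4, 7.72 and 24.4 normalized counts with vehicle and 9.12, 8.37 and 5.53 with tamoxifen, which overlap (log2 fold change -1.14, SE 0.58, unadjusted p 0.0470). ISG15 had 14.7, 18.3 and 25.3 with vehicle and 13.2, 13.96 and 12.9 with tamoxifen, which did not overlap (log2 fold change -0.55, SE 0.39). IRF1 had 35.9, 50.2 and 26.3 with vehicle and 24.3, 31.6 and 30.4 with tamoxifen (-0.37, SE 0.31, adjusted p 0.548). IFITM2 had 4 summed counts with vehicle and 20 with tamoxifen in this line, a value singled out after it was seen.

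**Figure D5:**
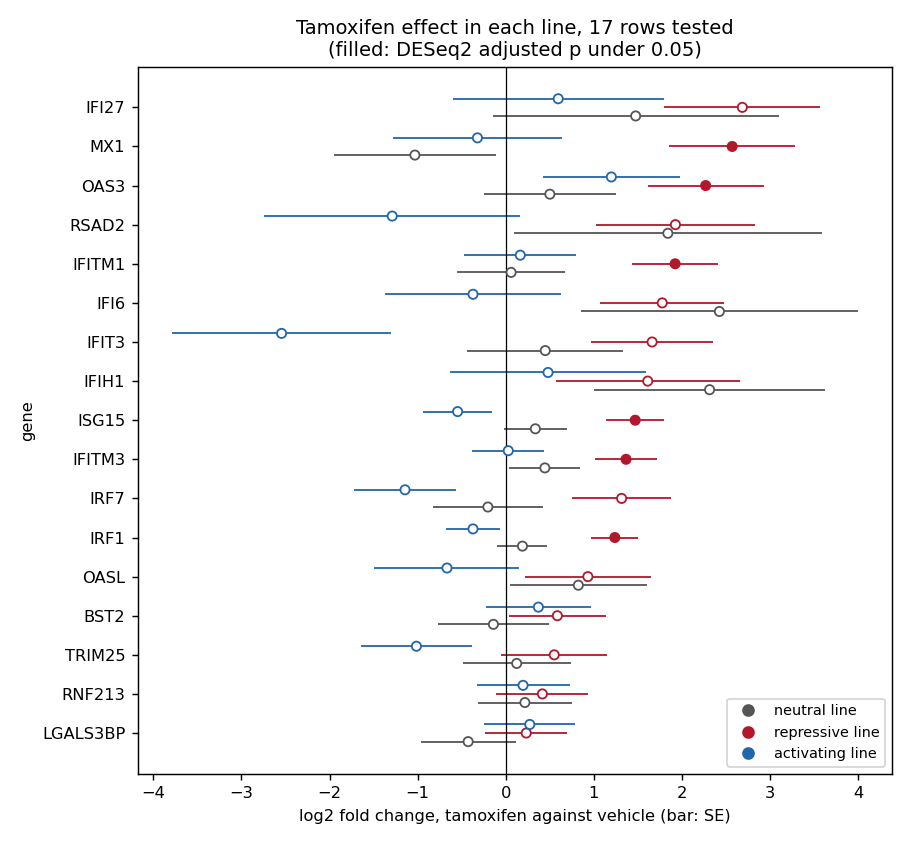
Log2 fold change of tamoxifen against vehicle for the 17 rows tested in the neutral, repressive and activating lines, with bars for 1 SE. Filled points have a DESeq2 adjusted p under 0.05, and these are the 6 rows of the repressive line at 1.24 to 2.57.

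Whether the lines differed was tested as an interaction, that is, the tamoxifen effect in 1 line minus that in another. Between the activating and the repressive line 3 rows passed, all lower in the activating line, against 4.25% of all genes and 2.61% lower. Of all genes called, 152 of 247 were lower here and 109 of 298 with total-count scaling. The difference was -1.61 for IRF1 (SE 0.41, adjusted p 0.00229), -2.02 for ISG15 (SE 0.52, adjusted p 0.00288) and -2.46 for IRF7 (SE 0.80, adjusted p 0.0371) on the log2 scale. The IRF7 value was not stable, with adjusted p values from 0.0571 to 0.103 in 8 alternatives, among them edgeR, and none at all in 13 others. Between the repressive and the neutral line 0 rows passed in DESeq2 and in edgeR, with 3.85% of all genes passing, and IRF1, IFITM1, ISG15 and MX1 were higher at an unadjusted p under 0.05, which 13.9% of all genes passed. For IRF1 the difference was 1.05 (SE 0.39, adjusted p 0.0796) and for MX1 3.60 (SE 1.16, unadjusted p 0.00199, no adjusted p). IRF1 passed without vehicle replicate 1 (1.26, adjusted p 0.0324) or tamoxifen replicate 1 (1.24, adjusted p 0.0455) of the neutral line, and IFITM1 without its tamoxifen replicate 3 (2.90, adjusted p 0.0185). Between the activating and the neutral line no row passed in DESeq2 or edgeR, 1 row (IFIT3) had an unadjusted p under 0.05, as had 7.41% of all genes, and 0.619% of all genes passed after adjustment.

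Levels before induction were compared among the vehicle-treated lines. No member passed between the repressive and the neutral line in DESeq2, with 2.51% of all genes passing. At an unadjusted p under 0.05, 6 of the 17 rows were higher, and 10.4% of all genes passed in either direction. Of these 6, IFI6, RSAD2 and IFI27 had reached the count filter only through libraries of the repressive line, which favours a difference. The count of 6 is therefore a description, and so are the p-values of IFI6, RSAD2 and IFI27 between this and the other vehicle-treated lines. The widest gap was in IFI6, with 0, 0 and 0 normalized counts in the neutral line and 9.49, 3.59 and 12.9 in the repressive line. Against a floor of 3 counts over the neutral group IFI6 was at least 8.71-fold higher. It passed in edgeR (adjusted p 0.00770) and in DESeq2 without independent filtering (adjusted p 0.00434). RSAD2 also had no count in the neutral vehicle libraries and 2.85, 9.88 and 1.84 in the repressive ones, at least 4.89-fold higher. LGALS3BP had 13.5, 11.5 and 14.8 in the neutral and 24.7, 26.9 and 30.3 in the repressive line, which do not overlap (log2 fold change 1.04, SE 0.50, adjusted p 0.285). IFI27, IFITM1 and IFITM3 were the remaining rows of the 6, with log2 fold changes of 3.24 (SE 1.46), 1.26 (SE 0.57) and 0.77 (SE 0.39). No member passed between the activating and the neutral line (0.808% of all genes, 2 rows at an unadjusted p under 0.05 against 7.1% of all genes, 0 in edgeR) or between the activating and the repressive line (1.72%, 3 rows against 10.1%, 0 in edgeR).

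Rows on the opposite strand of the members moved in the repressive line as well, and some held more counts than the member. There were 21 such rows, of which 19 were not members themselves. Of the 21, 8 were tested, and 4 rose, beside 9.65% of all genes that passed there (5.62% as higher). AP001610.5, opposite MX1, went from 28.8 ± 10.7 to 184 ± 23.99 normalized counts (SD, n = 3, log2 fold change 2.68, SE 0.31, adjusted p 4.47e-16). It had 749 counts in all libraries against 169 for MX1. CTD-2047H16.4, opposite RNF213, went from 58.3 ± 6.63 to 187 ± 2.98 (1.68, SE 0.23, adjusted p 4.70e-11), while the RNF213 row did not pass, and their totals were 1417 and 354. AC009950.2, opposite SP110, rose by 1.92 (SE 0.46, adjusted p 6.31e-04), with 360 counts against 24 for SP110. AC007899.3, opposite EIF2AK2, rose by 1.99 (SE 0.58, adjusted p 0.00720). In the neutral line none of these rows passed, beside 0.774% of all genes. In the activating line, where 2.8% of all genes passed, ENSG00000262112, opposite TRIM25, fell by 0.52 (SE 0.15, adjusted p 0.0105). How much of each row's count comes from the member's own transcript was not tested.

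The rest of the interferon pathway was read from a list of 62 further genes, of which 15 were tested and 9 had no count. In the repressive line 2 of the 15 rose, beside 9.65% of all genes that passed there (5.62% as higher), none fell, and no gene of the list passed in the neutral or activating line. TAP1, a peptide transporter of antigen presentation, went from 39.0 ± 0.476 to 87.8 ± 13.8 normalized counts (SD, n = 3, log2 fold change 1.17, SE 0.29, adjusted p 8.35e-04), and its exons overlap those of PSMB8-AS1. HELZ2, a helicase and nuclear receptor co-activator, went from 18.4 ± 3.30 to 50.3 ± 5.69 (1.45, SE 0.45, adjusted p 0.0155). The call of HELZ2 was lost without vehicle replicate 3 (adjusted p 0.0835), tamoxifen replicate 1 (0.0752) or tamoxifen replicate 3 (0.0548) of the repressive line. HELZ2 was also lower in the interaction of the activating with the repressive line (-2.01, SE 0.68, adjusted p 0.0490). Of the 8 interferon genes listed, the rows of 7 had 0 counts in every library, and that of IFNA1 had 4 counts in all. The leukocyte markers summed to 11 to 29 counts in the repressive vehicle libraries and 12 to 27 in the tamoxifen libraries. The basal markers summed to 1407 to 1874 and 1731 to 2467. Higher basal sums with tamoxifen were not limited to the repressive line. In the neutral line, these markers summed to 1292 to 1666 with vehicle and 1806 to 2096 with tamoxifen. Of the 7 basal markers, 3 passed as higher in the repressive line, 3 in the neutral line and 1 in the activating line. The part of these markers in the result was not tested.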

How the data were processed

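RNA was measured by sequencing in the 18 libraries described above. The authors prepared stranded mRNA libraries, processed them with the nf-core/rnaseq workflow on GRCh37 and deposited expected counts per gene from salmon (version 1.9.0), not scaled for depth or length, and 1.10% of values were not whole and were rounded. The strand setting is not stated.

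The 5816 genes reaching 10 counts in 3 or more libraries entered 1 DESeq2 fit (version 1.42.0 under R 4.3.3), which used group means, median-of-ratios size factors, Wald tests, independent filtering and Benjamini-Hochberg adjustment over all genes tested. Calls need an adjusted p under 0.05. Log2 fold changes are unshrunken, and independent filtering leaves rows of low count without an adjusted p. P-values measure the spread between the replicate samples, which the study describes as biological. Median-of-ratios scaling sets the typical gene at no change, and scaling to total counts moved the repressive line's log2 fold changes by a median of -0.13.

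Positions and overlaps came from GENCODE mapped to GRCh37, to which 96.1% of genes and all 49 members were matched. Promoters came from RefSeq (GRCh38.p14). The members and lists were chosen with earlier results of these data known. Members called in any comparison are given per library, the rest by summed counts, ranges or the fit, and pathway genes where they passed. A value given outside this rule is marked as such or serves as a contrast to a called gene. The lists were 6 pathway groups and 4 marker lists. Some genes of the lists are not reported here by name. The scripts were tested on simulated data. Alternatives were edgeR (version 4.0.16) quasi-likelihood tests, total-count scaling, no filter, no independent filtering, only the libraries compared, only genes with no opposite-strand overlap, a replicate-number block and leaving out each library.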

Additional observations from a re-analysis of the deposited data

Results flagged for a closer look

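In 4 genes the effect of tamoxifen differed between the activating and the repressive line by the interaction test of the DESeq2 model, with the activating line lower. Of all genes tested, 4.25% passed there and 2.61% passed as lower. The difference on the log2 scale was -1.61 for IRF1 (SE 0.41, adjusted p 0.00229), -2.02 for ISG15 (SE 0.52, adjusted p 0.00288), -2.46 for IRF7 (SE 0.80, adjusted p 0.0371) and -2.01 for HELZ2 (SE 0.68, adjusted p 0.0490). The repressive tamoxifen libraries were above the repressive vehicle libraries in 3 of 3 for each of these genes. In the activating line the vehicle and tamoxifen libraries overlapped for IRF1, IRF7 and HELZ2 and did not overlap for ISG15. HELZ2 passed in 8 of 25 alternative settings, with adjusted p values up to 0.154 in the others. IRF7 passed in 4 alternatives, had adjusted p values up to 0.103 in 8, and had no adjusted p in the rest.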

How the results depend on the processing

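None of the log2 fold changes of called members changed sign under the alternatives that could fit them, and no ratio of summed counts crossed 1. With total-count scaling the difference of IRF9, which was not tested, in the repressive line turned from higher to lower, and the genes called there from mostly higher (327 of 561) to mostly lower (381 of 611). The calls of IRF1, ISG15, IFITM1 and IFITM3 in the repressive line were kept in each of the 24 alternatives that could test them, with adjusted p values of at most 0.0320. A fit of the 1807 genes with no opposite-strand overlap holds 8 of the 17 rows tested and so could call fewer, and gave 1 call in the repressive line (OAS3) and 1 in the interaction of the activating with the repressive line (IRF7). Between the vehicle-treated repressive and neutral lines, 1 row (IFI6) was called with no independent filtering and 1 with edgeR. These calls are a description, since IFI6 reached the count filter only through libraries of the repressive line. Leaving out 1 library gave 4 to 6 calls in the repressive line, 0 to 1 in the interaction of the repressive with the neutral line, 2 to 3 in that of the activating with the repressive line and 0 in the other 6 comparisons. The ratio of the summed counts was then 1.11 to 1.18 in the neutral, 2.59 to 2.75 in the repressive and 0.795 to 0.864 in the activating line. In the repressive line the ratio was 2.42 with CPM and 2.40 without the 6 called rows, and in the neutral line 1.12 without those rows. These choices for the sums were made after seeing the data. Replicate numbers did not pair the samples, since the correlations of same-numbered deviations lay between -0.302 and 0.138. With the replicate number as a block, 6 rows were called in the repressive line, 2 in the interaction of the activating with the repressive line and 0 in the others. Over all genes, the counts called that moved by more than 1.5 times were as follows. Leaving out 1 library did so in 6 comparisons. For the neutral line 45 became 27 without neutral tamoxifen 1 and 25 without neutral tamoxifen 3, and for the activating line 163 became 94 without activating vehicle 2 and 94 without activating tamoxifen 3. For the interaction of the activating with the neutral line 36 became 23 without activating tamoxifen 3. Between vehicle-treated lines, 146 became 97 without neutral vehicle 2 and 97 without repressive vehicle 1 (repressive with neutral), 47 became 16 without neutral vehicle 1, 16 without neutral vehicle 2, 29 without repressive vehicle 1 and 2 without activating vehicle 3 (activating with neutral), and 100 became 65 without activating vehicle 3 (activating with repressive). The other alternatives that did so follow. For the neutral line 45 became 26 with no independent filtering and 22 with edgeR, and for the activating line 163 became 103 with edgeR. For the interaction of the activating with the neutral line 36 became 22 with no independent filtering and 17 with edgeR. Between the vehicle-treated activating and neutral lines 47 became 8 with no independent filtering, 29 with total-count scaling, 25 with no filter and 4 with edgeR, and between the activating and repressive ones 100 became 54 with only the libraries compared. With only the genes without overlap the counts were 0 against 45 in the neutral, 88 against 561 in the repressive and 8 against 163 in the activating line. The same fit gave 18 against 224, 2 against 36 and 40 against 247 in the 3 interactions (repressive with neutral, activating with neutral, activating with repressive). Between vehicle-treated lines it gave 14 against 146, 0 against 47 and 6 against 100 (repressive with neutral, activating with neutral, activating with repressive). The depth of at most 792282 counts per library limits all 32 rows below the filter to sums.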
